A study of Sus scrofa with 24 samples.

Results

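The probes of the mitochondrial ribosome and of the mitochondrial protein import machinery were taken from a porcine expression array as all probes whose gene symbol starts with MRPL, MRPS, TIMM or TOMM. Of 43603 probes on the array, 60 met this rule, and they belong to 26 of the 6651 genes that its probes could be named for. There were 28 probes for 13 genes of the large ribosomal subunit (MRPL), 10 probes for 6 genes of the small subunit (MRPS), 7 probes for 3 genes of the inner membrane translocase (TIMM) and 15 probes for 4 genes named for the outer membrane translocase (TOMM). After the filter on dim probes 58 probes and 25 genes remained. The exception was TOMM20L, a paralog of the import receptor gene TOMM20, whose 2 probes were well above background on 1 and 2 of the 24 arrays. The filter did not look at region or arm, and 57 of the 58 probes that passed it were well above background on all 24 arrays.

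The 24 arrays measured RNA from heart muscle of 9 domestic pigs in which a coronary artery had been blocked and reopened without opening the chest (closed-chest, reperfused infarction). All pigs of both arms received 250 mg aspirin and 300 mg clopidogrel before the infarct, followed by 100 mg and 75 mg daily. At 1 month after the infarct they were given either the secretome of apoptotic mononuclear blood cells or the medium alone as placebo, injected into the heart muscle through a catheter, and tissue was taken 1 month later. From the 6 secretome pigs there were 6 arrays of the infarct core, 6 of the border zone and 4 of the normal (remote) region. From the 3 pigs labelled as not treated, taken here as medium, there were 3, 3 and 2. The border zone was also the site of injection, and no age is stated. No array of the normal region came from pigs 12 and 13 (secretome) and 40 (medium), and the study randomized 8 animals to each treatment. The replicate is the pig throughout.

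Mitochondria keep a small genome that encodes core subunits of the respiratory chain, and a dedicated ribosome, the mitoribosome, translates them inside the organelle. Every protein of that ribosome is encoded in the nucleus, made in the cytosol and carried in through the outer membrane (TOM) and inner membrane (TIM) translocases. Heart muscle cells are densely packed with mitochondria, which supply most of the ATP used for contraction.

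Each array probe is a single-stranded DNA of 60 bases. The sequences below belong to genes on which the results turn and were taken from probes with a reading frame free of stop codons, printed 5′ to 3′ as the array files list them, with the start position given there. MRPL2, MRPS18B, MRPS22 and MRPS11 are shown because they fell the most among members with a single probe, MRPL14 because its probes gave different sizes, TOMM34 because it alone moved the other way, and MRPL52 because a pair of its probes overlaps. The TOMM34 level and difference reported below were read from its brightest probe, from 1775, which has no such frame and is not printed.
MRPL2, from 612: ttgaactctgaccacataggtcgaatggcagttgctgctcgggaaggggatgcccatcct
MRPL14, from 478: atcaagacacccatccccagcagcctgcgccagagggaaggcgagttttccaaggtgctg
MRPS11, from 514: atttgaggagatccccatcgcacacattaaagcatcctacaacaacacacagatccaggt
MRPS18B, from 153: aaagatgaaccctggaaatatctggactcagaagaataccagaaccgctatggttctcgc
MRPS22, from 793: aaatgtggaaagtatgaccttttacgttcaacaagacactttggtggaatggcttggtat
TOMM34, from 597: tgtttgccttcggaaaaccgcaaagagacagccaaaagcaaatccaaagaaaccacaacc
TOMM34, from 745: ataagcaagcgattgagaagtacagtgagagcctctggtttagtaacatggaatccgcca
MRPL52, from 351: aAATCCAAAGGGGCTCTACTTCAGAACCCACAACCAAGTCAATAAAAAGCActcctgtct
MRPL52, from 352: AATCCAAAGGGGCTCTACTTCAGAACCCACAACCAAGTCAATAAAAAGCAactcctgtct
Capitals mark the run of 50 bases that the latter pair shares. Both MRPL52 probes therefore read the same stretch of transcript and are not independent measurements, whereas the pair of TOMM34 probes does not overlap.

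Between 26824 and 32991 probes were well above background on an array. Both extremes came from medium pig 40, the lowest from its border zone and the highest from its infarct core, on different slides. The part of this imbalance in the values of pig 40 was not tested. The arrays were scanned in 2 series, series 1 with pigs 12, 13, 16, 18 and 40 and series 2 with pigs 10, 11, 14 and 15, so values within each series stand beside the region results. Cardiomyocyte markers (12 of 18 listed genes measured, given as their mean log2 signal) ranged from 7.95 to 8.67 in the normal region, from 7.32 to 8.48 in the border zone and from 2.17 to 8.15 in the infarct core. The infarct core of medium pig 40 stood apart at 2.17, with the next lowest at 6.17. The infarct cores of secretome pigs 11 and 15 lay within the range of the normal region, at 8.06 and 8.15. Fibroblast and scar matrix markers (8 of 12 measured) ranged from 3.99 to 5.69 in the infarct core and from 0.89 to 2.68 in the normal region, and macrophage and monocyte markers (9 of 14 measured) from 2.52 to 4.28 and from 1.30 to 2.13. In such bulk tissue, fewer cells of a type and less RNA per cell cannot be told apart.

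Most members were lower in the infarct core than in the normal region. Each gene was read from its brightest probe, on the log2 scale relative to the 75th percentile of its array, and differences are fitted log2 differences with their standard error (SE). Of the 25 measured genes 22 fell and 1 rose at an adjusted p under 0.05 (limma, Benjamini-Hochberg adjustment over all 34361 kept probes). Among all 6060 named genes read the same way, 30.9% fell and 27.6% rose. The median difference of the members was -1.11, beside -0.07 over all named genes. In the 6 pigs with both regions, 21 members were lower in the infarct core in every pig, which held for 27.4% of all named genes. For 9 members all 9 infarct core arrays lay below all 6 normal region arrays, which held for 6.58% of all named genes. Within scan series 1 the median of the members was -1.35, beside -0.11 over all kept probes. Within scan series 2 it was -0.95, beside -0.03. Series 1 has 1 normal region array in each arm and series 2 has 1 with medium, and such a lone array is assumed to vary like the other groups.

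**Figure D1:**
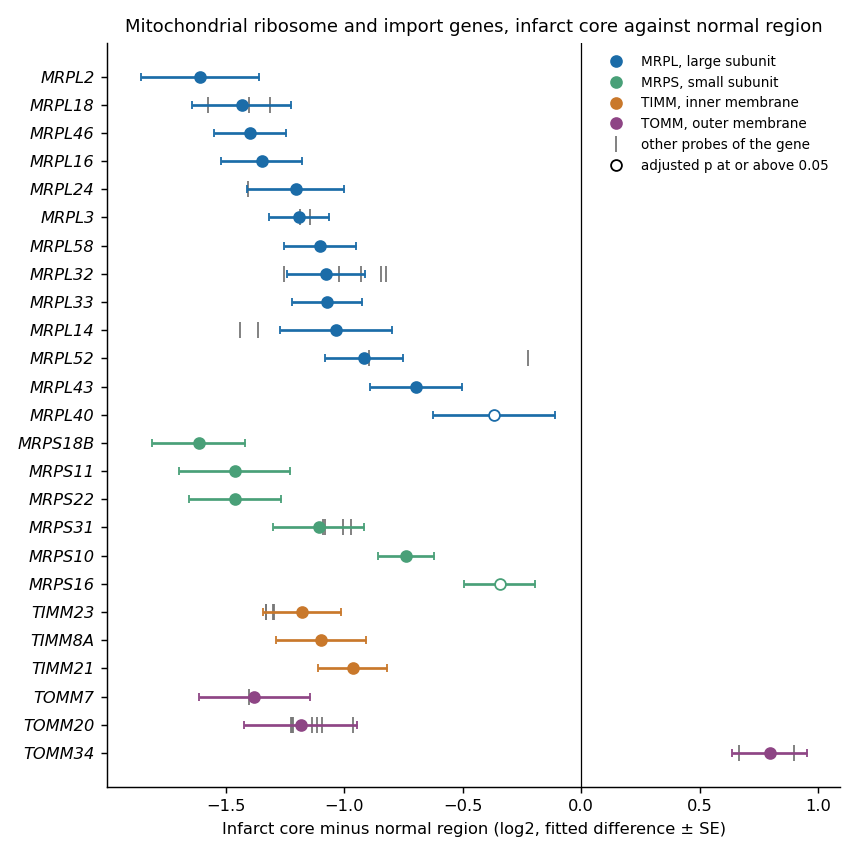
Fitted log2 difference of infarct core against normal region for the 25 measured member genes, grouped by family, with bars for the standard error; ticks show the other kept probes of the same gene and open symbols the genes that did not pass. All symbols but that of TOMM34 lie below 0, from -1.61 to -0.34.

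In the large subunit 12 of 13 genes fell, with a median of -1.10. MRPL2, a conserved protein of the subunit core, measured 2.01 to 3.38 in the normal region (median 3.06), 1.02 to 3.24 in the border zone (median 2.01) and 0.12 to 2.52 in the infarct core (median 0.72). The infarct core arrays overlapped the normal region only in their upper values. MRPL2 fell by 1.61 (SE 0.25, adjusted p = 1.97e-05), to 0.328 times the normal level, and was lower in 6 of 6 pigs. MRPL18, a conserved protein of the central protuberance, measured 5.37 to 5.99 in the normal region (median 5.72) and 3.26 to 5.43 in the infarct core (median 4.14), and fell by 1.43 (SE 0.21, adjusted p = 9.90e-06). The ranges of MRPL18 met only at the infarct core of pig 15.

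MRPL46, a subunit protein with no bacterial counterpart, did not overlap between regions. Its signal was 2.94 to 3.67 in the normal region (median 3.01) and 1.43 to 2.36 in the infarct core (median 1.86), and it fell by 1.40 (SE 0.15, adjusted p = 5.43e-07). MRPL16, a conserved protein near the catalytic centre, likewise did not overlap, with 2.99 to 4.35 in the normal region (median 3.21) and 1.55 to 2.82 in the infarct core (median 2.31), and fell by 1.35 (SE 0.17, adjusted p = 2.46e-06). MRPL3, another core protein, had the smallest adjusted p of all members: 3.50 to 4.16 in the normal region (median 3.92), 2.27 to 3.11 in the infarct core (median 2.72), a fall of 1.19 (SE 0.12, adjusted p = 4.13e-07). The fall was seen in every one of the 6 pigs for these 3 genes.

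The smallest differences in the large subunit were those of MRPL43 and MRPL40. MRPL43 measured -2.18 to -0.52 in the normal region (median -1.65) and -2.82 to -1.14 in the infarct core (median -1.89). Its arrays overlapped widely, yet it was lower in 6 of 6 pigs and fell by 0.70 (SE 0.19, adjusted p = 0.00464). The call of MRPL43 was lost with normexp background correction (-0.53, adjusted p = 0.0614) and without the pig block (-0.60, adjusted p = 0.146). MRPL40, the dimmest measured member, was -4.15 to -3.23 in the normal region (median -3.82) and -5.36 to -3.54 in the infarct core (median -3.96). It did not pass (-0.37, SE 0.26, adjusted p = 0.236) and was lower in 3 of 6 pigs. The other 6 genes of the subunit (MRPL14, MRPL24, MRPL32, MRPL33, MRPL52 and MRPL58) fell by 0.92 to 1.20. Among them is MRPL58, a peptidyl-tRNA hydrolase that is built into the large subunit and rescues stalled ribosomes, which fell by 1.10 (SE 0.15, adjusted p = 6.29e-06).

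In the small subunit 5 of 6 genes fell, with a median of -1.28. MRPS18B, one of the alternative S18 proteins of mammalian mitoribosomes, measured 1.03 to 1.58 in the normal region (median 1.30), 0.01 to 1.65 in the border zone (median 0.99) and -1.01 to 0.76 in the infarct core (median -0.52). No infarct core array reached the lowest normal region array, and MRPS18B fell by 1.61 (SE 0.20, adjusted p = 1.67e-06), to 0.327 times the normal level. MRPS22, a subunit protein specific to mitochondria in which inherited variants cause cardiomyopathy, also showed no overlap, with 1.99 to 2.25 in the normal region (median 2.08) and -0.01 to 1.70 in the infarct core (median 0.62), and fell by 1.46 (SE 0.19, adjusted p = 3.98e-06). MRPS11, a conserved protein of the subunit platform, fell by the same amount, 1.46 (SE 0.23, adjusted p = 2.84e-05), from 2.02 to 2.99 (median 2.62) in the normal region to 0.13 to 2.27 (median 0.64) in the infarct core. Its ranges overlapped at the top of the infarct core values.

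MRPS31, another protein specific to the mitochondrial small subunit, fell by 1.11 (SE 0.19, adjusted p = 5.80e-05), from 2.81 to 3.77 (median 3.63) to 1.70 to 3.25 (median 2.10). MRPS10 fell by 0.74 (SE 0.12, adjusted p = 2.83e-05), from the narrow range of 3.35 to 3.58 (median 3.40) to 2.39 to 3.24 (median 2.57), with no overlap. The MRPS10 call was lost with normexp (-0.65, adjusted p = 0.0561) and in scan series 2 alone (-0.56, adjusted p = 0.0511). MRPS16, a conserved small subunit protein, was the exception in its family. It measured 0.19 to 1.08 in the normal region (median 0.69) and -0.47 to 0.64 in the infarct core (median 0.31), and the regions overlapped between 0.19 and 0.64. It did not pass (-0.34, SE 0.15, adjusted p = 0.0570) and was lower in 5 of 6 pigs; without pig 15 it passed (-0.45, adjusted p = 0.0134), as it did with the filter that asks for all arrays (-0.34, adjusted p = 0.0430).

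**Figure D2:**
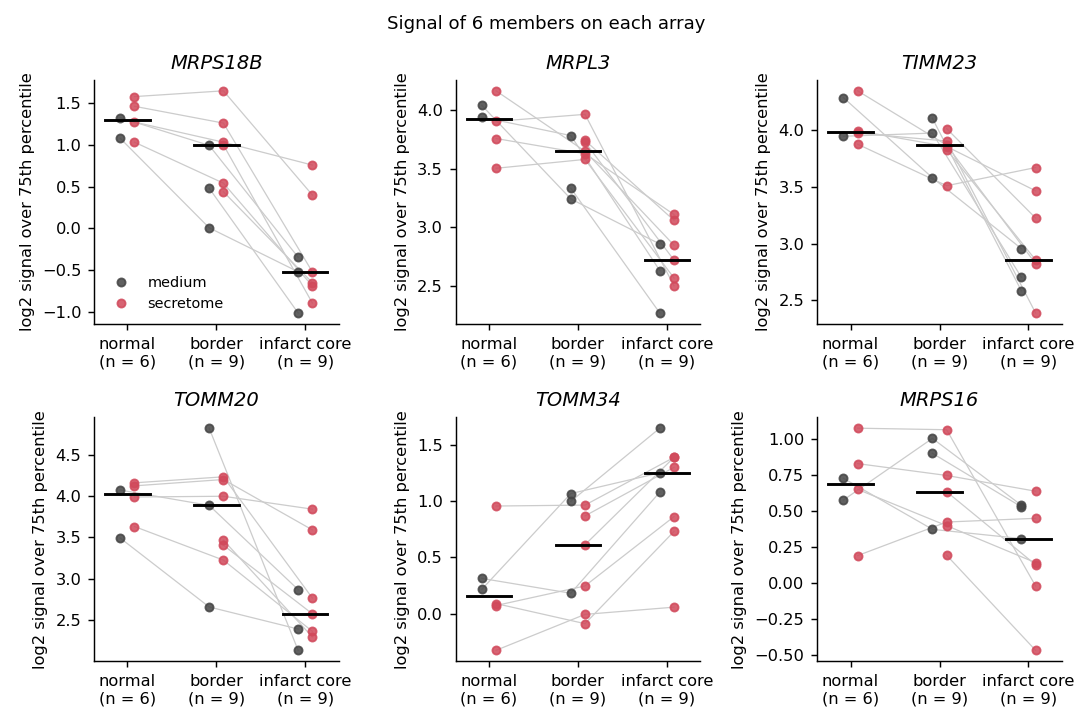
Signal of 6 members on each of the 24 arrays, in log2 units relative to the 75th percentile of the array, by region and coloured by arm; grey lines join the arrays of a pig and black bars are medians. MRPS18B, MRPL3 and TIMM23 show no overlap between infarct core and normal region, TOMM34 is higher in the infarct core, and MRPS16 overlaps.

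All 3 measured genes of the inner membrane translocase fell. TIMM23, which forms the channel for proteins with a presequence, measured 3.87 to 4.34 in the normal region (median 3.98), 3.51 to 4.10 in the border zone (median 3.87) and 2.39 to 3.67 in the infarct core (median 2.86). The highest infarct core array, that of pig 15, was still below the lowest normal region array, and TIMM23 fell by 1.18 (SE 0.17, adjusted p = 6.89e-06). TIMM8A, a chaperone of the intermembrane space that escorts membrane proteins, fell by 1.10 (SE 0.19, adjusted p = 5.98e-05), from 1.12 to 1.89 (median 1.34) to -0.18 to 1.17 (median 0.54), the ranges touching at 1 infarct core array; in scan series 2 alone it did not pass (-0.89, adjusted p = 0.0544). TIMM21, which links the TIM23 complex to the outer membrane and to respiratory chain assembly, fell by 0.96 (SE 0.15, adjusted p = 1.49e-05), from -1.27 to -0.70 (median -0.99) to -2.66 to -0.95 (median -1.93). Each of the 3 genes was lower in 6 of 6 pigs.

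In the outer membrane family TOMM20 and TOMM7 fell and TOMM34 rose. TOMM20, the receptor for presequences, measured 3.49 to 4.16 in the normal region (median 4.03), 2.66 to 4.82 in the border zone (median 3.89) and 2.14 to 3.84 in the infarct core (median 2.58). It fell by 1.18 (SE 0.24, adjusted p = 0.000275), with the infarct cores of pigs 11 and 15, at 3.59 and 3.84, inside the normal range. TOMM7, a small subunit that modulates the TOM complex, fell by 1.38 (SE 0.23, adjusted p = 5.15e-05), from 5.97 to 6.62 (median 6.44) to 4.05 to 6.22 (median 4.94), and only the infarct core of pig 15 reached the normal range. Both genes were lower in 6 of 6 pigs.

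TOMM34 carries the family name but encodes a cytosolic co-chaperone that binds Hsp70 and Hsp90. It measured -0.32 to 0.96 in the normal region (median 0.15), -0.09 to 1.07 in the border zone (median 0.61) and 0.06 to 1.65 in the infarct core (median 1.25). The groups overlapped between 0.06, the infarct core of pig 15, and 0.96, the normal region of pig 16. TOMM34 rose by 0.79 (SE 0.16, adjusted p = 0.000272), to 1.73 times the normal level, and was higher in 6 of 6 pigs, as were 22.8% of all named genes. Its 3 probes gave rises of 0.79, 0.90 and 0.66, and the latter 2 values belong to the probes printed above. The difference of TOMM34 stayed above 0 and past the threshold under every alternative that measured it, from 0.66 to 0.91. The authors' deposited log2 values hold 17 of the members, and TOMM34 is not among them.

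Several genes had more than 1 probe, which gave a check on the choice of the brightest. Of the 58 kept probes 52 fell and 3 rose, beside 27.6% and 25.3% of all kept probes, and 11 genes had 2 or more probes. The 8 probes of TOMM20 all fell, by 0.96 to 1.22, and the 5 probes of TIMM23 by 1.18 to 1.33. The 5 probes of MRPS31 fell by 0.97 to 1.11, the 4 of MRPL18 by 1.31 to 1.57 and the 6 of MRPL32 by 0.83 to 1.25. These sets describe single transcripts, and 9 pairs of probes of the same gene share 20 or more bases. One pair of MRPL3 probes has the same 60 bases and gave falls of 1.19 and 1.19. MRPL14 fell by 1.04 on its brightest probe and by 1.36 and 1.44 on the others. MRPL52, singled out after its values were seen, was the gene whose probes disagreed most: the overlapping pair fell by 0.90 and 0.92, while its other probe, from position 712, did not pass (-0.23, adjusted p = 0.325).

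Infarct core against border zone gave a similar picture over all 9 pigs. It shares the infarct core arrays with the comparison above, so it is not independent of it. Of the 25 genes 23 fell and 1 rose, where 26.3% of all named genes fell and 25.8% rose, and the median of the members was -0.89 beside -0.02 over all named genes. In 17 members the infarct core was lower in 9 of 9 pigs, which held for 15.1% of all named genes. MRPL3 and MRPL46 were the members whose 9 infarct core arrays all lay below the 9 border zone arrays, a pattern found in 0.314% of all named genes. MRPL3 fell by 0.89 (SE 0.11, adjusted p = 7.09e-06) and MRPL46 by 0.97 (SE 0.13, adjusted p = 1.44e-05). The largest fall was that of TOMM7, by 1.22 (SE 0.20, adjusted p = 7.12e-05), with a difference of -0.89 in scan series 2 alone. Next was MRPS18B, which fell by 1.19 (SE 0.17, adjusted p = 2.16e-05).

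TOMM34 rose against the border zone by 0.55 (SE 0.14, adjusted p = 0.00258) and was higher in 9 of 9 pigs, as were 16.4% of all named genes. That call was lost with normexp background correction (0.33, adjusted p = 0.206), without the pig block (0.55, adjusted p = 0.0858) and in scan series 2 alone (0.70, adjusted p = 0.0590). MRPL40 did not pass (-0.51, SE 0.22, adjusted p = 0.0625), but did with quantile normalization (-0.57, adjusted p = 0.0383) and with the authors' values (-0.09, adjusted p = 0.0184). MRPS16 passed narrowly (-0.37, SE 0.13, adjusted p = 0.0238), and the call was lost without pig 10 (adjusted p = 0.109), without pig 14 (adjusted p = 0.0529) and without pig 40 (adjusted p = 0.0723). It was also lost with the percentile taken over detected probes (adjusted p = 0.0575), with the slide as the block (adjusted p = 0.0669), without the pig block (adjusted p = 0.125) and within scan series 1 (adjusted p = 0.134) and scan series 2 (adjusted p = 0.288). MRPL14 fell by 0.77 (SE 0.21, adjusted p = 0.00432) and missed the threshold without pig 40 (-0.54, adjusted p = 0.0528), without the pig block (adjusted p = 0.126) and in scan series 2 alone (-0.62, adjusted p = 0.0523). MRPL43 (-0.26, adjusted p = 0.375) and TIMM21 (-0.26, adjusted p = 0.398) did not pass with normexp, and MRPL43 did not pass without the pig block (adjusted p = 0.0966). Within scan series 1 the median of the members was -0.86, beside -0.01 over all kept probes. Within scan series 2, with 4 pigs of which 1 had medium, it was -0.88, beside -0.02. Fewer members passed in series 2 than in the reported fit, and fewer of all kept probes did too. TOMM7 was among the members that did not pass there.

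In the border zone against the normal region no member passed, and among all named genes 0.627% did. At an unadjusted p under 0.05 there were 4 members, and the share of all named genes at that p was not computed. Below 0 were 22 of 25 members and 3284 of all 6060 named genes. Differences ran from -0.49 to 0.25 with a median of -0.27, beside -0.03 over all named genes. The median was -0.13 without pig 18, -0.10 in scan series 2 alone and -0.03 with normexp. Over all kept probes it was -0.0005, -0.02 and -0.24 in these settings. With normexp the median of the members thus lay above that of all kept probes. The 3 smallest p belonged to MRPL46 (-0.43, SE 0.15, adjusted p = 0.200), MRPL16 (-0.46, SE 0.17, adjusted p = 0.217) and MRPL3 (-0.30, SE 0.12, adjusted p = 0.279). MRPL46 was lower in the border zone in 4 of 6 pigs, MRPL16 in 5 and MRPL3 in 4. The 95% interval of any member reached no lower than -1.01 and no higher than 0.68. In 7 of the 25 members (MRPL14, MRPL18, MRPL24, MRPL52, MRPL58, MRPS11 and TOMM7) the border zone was lower in all 6 pigs, which held for 6.78% of all named genes. The median of the members within a pig was -0.77 in medium pig 18, -0.47 in secretome pig 16 and between -0.18 and 0.01 in the other 4 pigs, and pigs 16 and 18 are the only ones of scan series 1 with a normal region array.

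The size of the fall varied between pigs. The median of the 25 members, infarct core minus border zone, was -1.36 in pig 40, -1.34 in pig 14, -1.02 in pig 10, -1.01 in pig 13, -0.86 in pig 16, -0.76 in pig 12, -0.75 in pig 11, -0.43 in pig 18 and -0.16 in pig 15. Pig 15 was the smallest, with 18 of 25 members below 0, where the other pigs had 23 or 24. Its cardiomyocyte markers also differed least between infarct core and border zone, by -0.21, and those of pig 40 differed most, by -5.66. The infarct core of pig 40 had by far the lowest cardiomyocyte markers, while its member median, 1.70, was above the 1.55 of pig 14, whose cardiomyocyte markers stood at 6.94. Against the normal region, members fell in the same number without pig 40 (22 fallen, 1 risen) and 23 fell without pig 15. Fibroblast markers in the infarct core were lowest in pig 15, at 3.99. How far cell content and the member levels depend on each other was not tested.

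**Figure D3:**
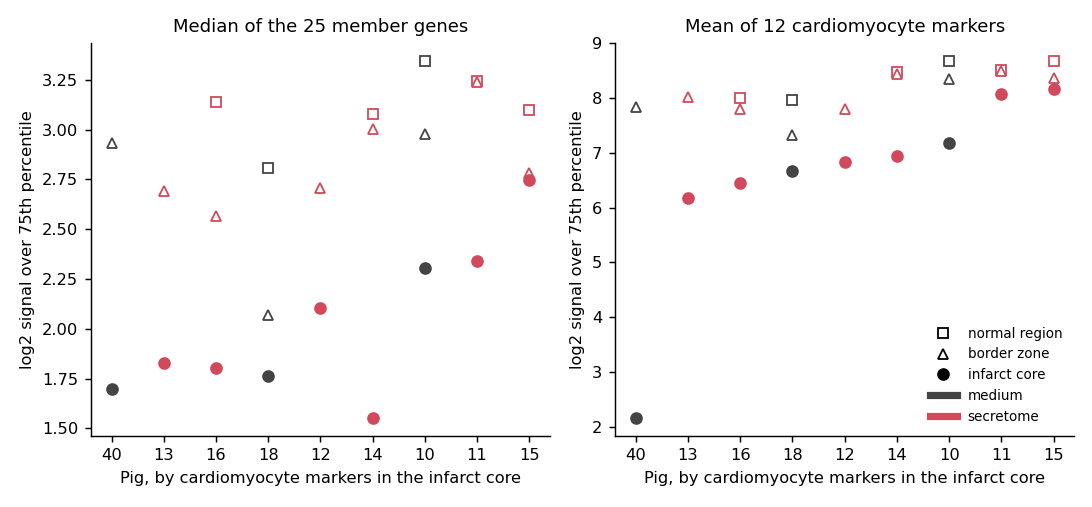
Median log2 signal of the 25 measured member genes (left) and mean log2 signal of 12 cardiomyocyte markers (right) for each pig, by region (symbol) and arm (colour), in log2 units relative to the 75th percentile of the array; pigs are ordered by the cardiomyocyte markers of their infarct core. The infarct core of pig 40 is far below the others on the right at 2.17 but near them on the left at 1.70.

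Most of the measured genes on 3 further lists of the same pathways fell in the infarct core against the normal region, while most listed genes were not measured. Among all named genes 30.9% fell and 27.6% rose. Of 36 listed mitochondrial translation factors and aminoacyl-tRNA synthetases 8 were measured, and 7 fell, with a median of -0.90. The lowest were VARS2, the mitochondrial valyl-tRNA synthetase (-1.24, SE 0.33, adjusted p = 0.00370), MTRF1, a mitochondrial release factor (-1.12, SE 0.19, adjusted p = 4.58e-05), and AARS2, the alanyl-tRNA synthetase (-1.03, SE 0.20, adjusted p = 0.000241). The highest were GATC, a subunit of the glutaminyl-tRNA amidotransferase (-0.60, SE 0.11, adjusted p = 0.000167), and EARS2, the glutamyl-tRNA synthetase, which did not pass (-0.04, SE 0.25, adjusted p = 0.914).

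Of 47 listed symbols for mitoribosome assembly, mitochondrial transcription and RNA handling 12 were measured, 2 of them (MTERF3 and its older symbol MTERFD1) naming the same gene, and 8 fell, with a median of -0.78. The lowest were SLIRP, an RNA-binding partner that stabilises mitochondrial messenger RNA (-1.39, SE 0.22, adjusted p = 2.95e-05), RBFA, a ribosome-binding factor of small subunit assembly (-1.33, SE 0.20, adjusted p = 1.51e-05), and PTCD3, a protein of the small subunit (-1.26, SE 0.19, adjusted p = 1.28e-05). MTG1, a GTPase of large subunit assembly, fell by 1.07 (SE 0.10, adjusted p = 1.70e-07). The probes of MTERF3, a regulator of mitochondrial transcription and ribosome assembly, did not pass (0.14, SE 0.10, adjusted p = 0.217, and 0.09, SE 0.12, adjusted p = 0.558).

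Of 39 listed genes for other import, sorting, processing and chaperone proteins 12 were measured and 11 fell, with a median of -1.07. The lowest were MIPEP, the intermediate peptidase that trims imported proteins (-2.01, SE 0.27, adjusted p = 5.24e-06), APOOL, a subunit of the cristae junction complex (-1.74, SE 0.27, adjusted p = 2.35e-05), and DNAJC19, a co-chaperone of the import motor (-1.68, SE 0.24, adjusted p = 9.63e-06). MTX1, of the outer membrane sorting machinery, fell by 0.36 (SE 0.10, adjusted p = 0.00647), and GFER, the sulfhydryl oxidase of intermembrane space import, did not pass (-0.18, SE 0.15, adjusted p = 0.343).

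A pair of comparison sets stands beside these values. Subunits of the respiratory chain and ATP synthase fell in 35 of 36 genes with a median of -1.84, further below 0 than that of the members. The lowest were COX8H, the heart form of a cytochrome oxidase subunit (-3.37, SE 0.64, adjusted p = 0.000178), COX7A1, another heart and muscle form (-2.48, SE 0.41, adjusted p = 4.26e-05), and ATP5G1 of the ATP synthase ring (-2.25, SE 0.35, adjusted p = 1.87e-05). NDUFAB1 was the second highest (-0.87, SE 0.23, adjusted p = 0.00333), and COX6A1, the form of subunit 6A that is not specific to heart and muscle, rose (0.46, SE 0.16, adjusted p = 0.0179). Proteins of the cytosolic ribosome had a median of -0.28. Of their 48 genes 11 fell and 2 rose, where 30.9% of all named genes fell and 27.6% rose. The cytosolic set ran from RPL13A (-0.76, SE 0.19, adjusted p = 0.00191), RPLP0 (-0.59, SE 0.14, adjusted p = 0.00143) and RPL8 (-0.52, SE 0.16, adjusted p = 0.00801) to RPL3 (0.92, SE 0.19, adjusted p = 0.000300) and RPL10L (1.12, SE 0.28, adjusted p = 0.00236). The difference in median between these sets and the members was not tested. Against the border zone the medians were -0.50 for the translation factors and synthetases, -0.60 for assembly and RNA handling, -0.88 for other import genes, -1.54 for the respiratory chain and -0.34 for the cytosolic ribosome. Cardiomyocyte markers fell in 11 of 12 measured genes with a median of -1.99, and fibroblast markers rose in 8 of 8.

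**Figure D4:**
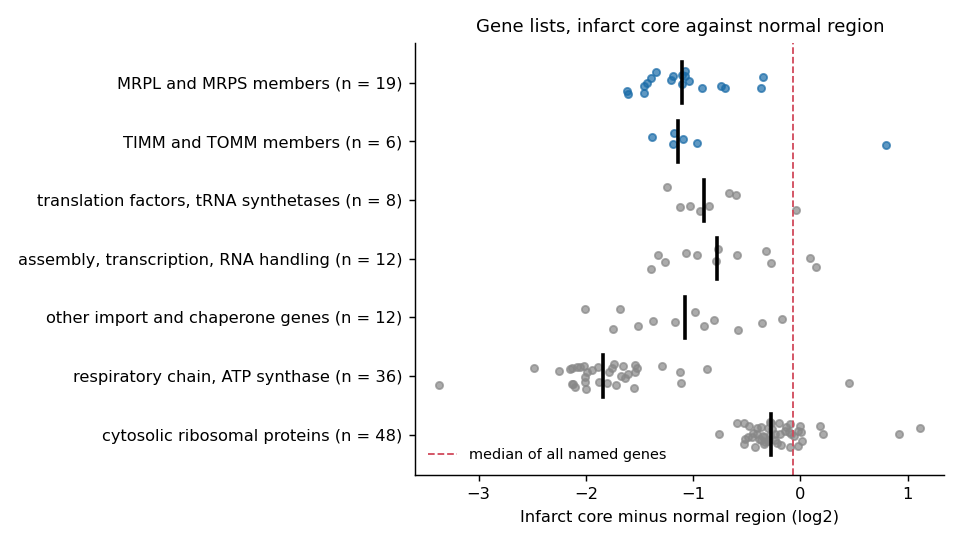
Fitted log2 difference of infarct core against normal region for each gene of the member families and 5 further lists; black bars are list medians and the dashed line is the median of all 6060 named genes, -0.07. The median of the 25 members, -1.11, lies between that of the respiratory chain set, -1.84, and that of the cytosolic ribosomal proteins, -0.28. The ranges of these sets overlap.

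Secretome against medium passed for no member in any region, beside 0.033% of all named genes in the infarct core and 0% in each of the other regions. At an unadjusted p under 0.05 there were 1, 0 and 1 members in infarct core, border zone and normal region. The shares of all named genes at that p were not computed. In the infarct core 20 of 25 differences were above 0 and 5 below, where 3072 of all 6060 named genes were below 0. The median of the members was 0.33, beside -0.01 over all named genes. That median was 0.15 without pig 15, 0.19 without pig 40, 0.11 in scan series 1 alone, 0.06 with the slide as the block and 0.60 with normexp. No gene of the pathway lists above passed either, and the median of the respiratory chain set was 0.69. TIMM21 had the smallest p there: its medium arrays measured -1.90, -2.31 and -2.66, and its secretome arrays ranged from -2.18 to -0.95 with a median of -1.78. The arms overlapped, and the difference was 0.58 (95% interval 0.03 to 1.13, adjusted p = 0.975). TOMM7 measured 5.25, 4.49 and 4.05 with medium and 4.63 to 6.22 (median 4.98) with secretome, a difference of 0.63 (95% interval -0.26 to 1.51, adjusted p = 0.975). MRPL18 measured 4.44, 3.87 and 3.26 with medium and 3.72 to 5.43 (median 4.18) with secretome, a difference of 0.56 (95% interval -0.23 to 1.35, adjusted p = 0.975). The highest secretome arrays of the 3 genes were those of pig 15, and the lowest medium arrays those of pig 40, the animals with the highest and lowest cardiomyocyte markers in the infarct core. The cardiomyocyte marker means there were 7.18, 6.67 and 2.17 with medium and 6.17 to 8.15 with secretome, and their part in the differences was not tested.

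In the border zone differences ran from -0.31 to 0.59 with a median of 0.12. The sign of that median turned without pig 18 (-0.19), with scan series as a covariate (-0.04) and with the slide as the block (-0.07), and over the other pigs left out in turn it ran from 0.01 without pig 11 to 0.31 without pig 40. MRPS18B measured 0.99, 0.01 and 0.48 with medium and 0.44 to 1.65 (median 1.02) with secretome, a difference of 0.49 (95% interval -0.25 to 1.23, adjusted p = 0.712). MRPL2 differed by 0.59 (95% interval -0.35 to 1.53, adjusted p = 0.727) and MRPL33, a small large-subunit protein, by 0.32 (95% interval -0.24 to 0.88, adjusted p = 0.743). The arms of all 3 genes overlapped. In the normal region the median was -0.04, and it was above 0 without the pig block (0.07) and in scan series 1 alone (0.08). MRPL16, the member with the smallest p there, measured 3.87 and 4.35 with medium and 3.25, 2.99, 3.17 and 3.14 with secretome. The difference was -0.76 (95% interval -1.50 to -0.03, adjusted p = 1.00). Its arms did not overlap, with 2 medium arrays, and the share of all named genes for which this held was not computed. MRPL43 differed by -0.62 (95% interval -1.46 to 0.22, adjusted p = 1.00) and TIMM8A by -0.31 (95% interval -1.13 to 0.51, adjusted p = 1.00). Over all members the intervals reached -1.09 to 1.51 in the infarct core, -1.24 to 1.53 in the border zone and, for the normal region, -1.50 to 1.22, which are the sizes that these numbers of pigs leave possible.

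The difference between arms in infarct core against border zone, a test of whether the fall itself depended on treatment, passed for no member and for 0% of all named genes, and no member had an unadjusted p under 0.05. The interaction values ran from -0.13 to 0.59 with a median of 0.15. That median turned to -0.13 without pig 40 and to -0.01 with the slide as the block, and it was 0.04 without pig 15 and 0.46 without pig 18. The smallest p belonged to TIMM8A (0.52, SE 0.33, adjusted p = 0.841), TOMM7 (0.59, SE 0.40, adjusted p = 0.846) and MRPS10 (0.29, SE 0.21, adjusted p = 0.846). The median member difference within a pig ranged from -1.36 to -0.43 in the 3 medium pigs and from -1.34 to -0.16 in the 6 secretome pigs, so the arms overlapped.

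**Figure D5:**
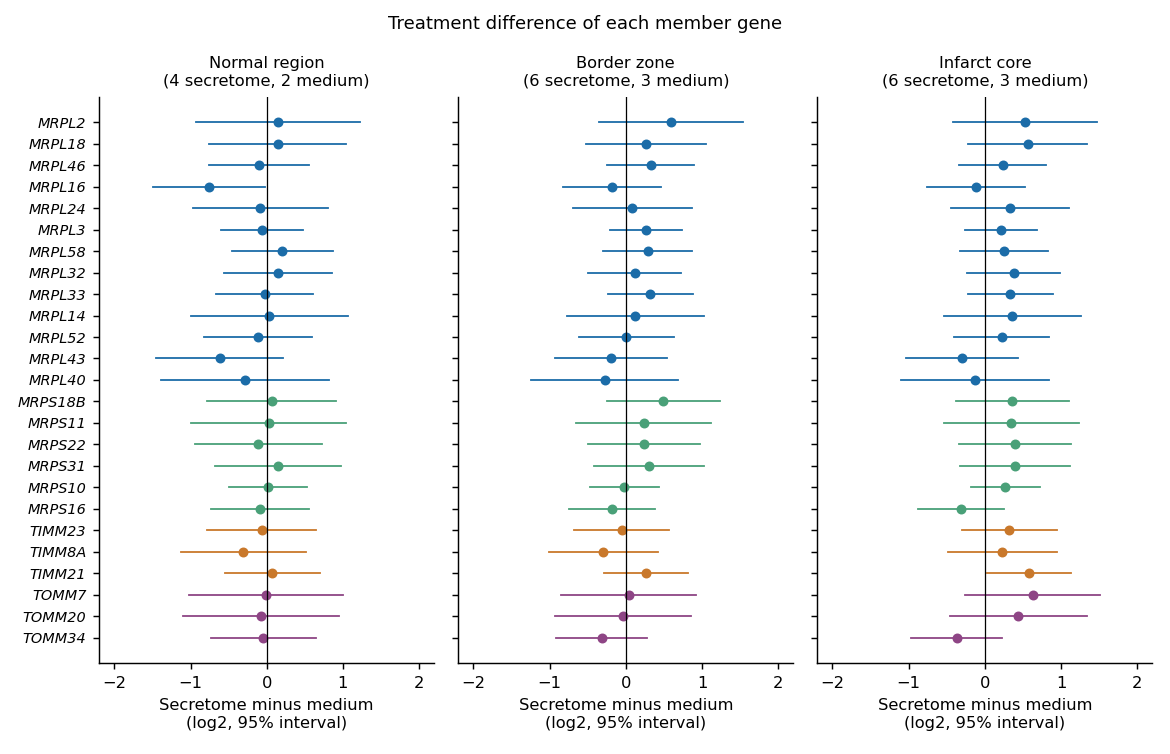
Fitted log2 difference of secretome against medium for each measured member gene in the normal region, border zone and infarct core, with 95% intervals and colours by family. Most points of the infarct core lie above 0, and no gene passed after adjustment.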

How the data were processed

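Total RNA (integrity number above 6, 100 ng labelled per array, per the labels' protocols) was hybridized to 24 Agilent 1-colour porcine arrays. The deposited intensity values are, per the file headers, background-subtracted signals of Feature Extraction 10.7.3.1. The authors' deposited log2 values (column medians 7.684 to 7.692, limma 3.14.4 named in the submitters' processing notes, scaling not given in the sources used here) served as an alternative.

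Outlier spots were left out (1 to 27 per array), spots of a probe averaged, and signals divided by the array's 75th percentile. A probe stayed in if at least 3 arrays measured it well above background (34361 of 43603). Gene symbols were assigned to 8993 probes by RefSeq accession, to 1299 by gene ID and to 3544 by the name printed in the scanner output, while 27 probes had several symbols and 29740 none. limma 3.58.1 (R 4.3.3, statmod 1.5.0) fitted a mean per region and arm with pig as a random block (correlation 0.548), region comparisons weighting arms equally. The p-values were Benjamini-Hochberg adjusted over all kept probes, with a threshold of 0.05. Plots were drawn with matplotlib 3.10.9.

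Arrays of a pig share both the animal and the scan series. Deviations of the 21 same-pig pairs correlated by 0.583 on average, all above 0.1. The averages were 0.439 for other pigs of the same scan series and -0.454 across series. The reported fit has no term for scan series, and its block correlation was 0.548. Adding such a term lowered this value to 0.204. With it 23 members passed against the normal region and 24 against the border zone, the same counts as reported. How much of the 0.548 belongs to the animal alone was not tested. In a simulation of 6000 probes on this number of arrays, 149 of 200 2-fold changes were recovered for infarct core against normal region. For secretome against medium in the infarct core 76 of 200 were. The simulation had no scan series and left 4800 probes unchanged throughout, whereas 27.6% of kept probes fell and 25.3% rose against the normal region. Its recovery therefore does not carry over directly to the real comparisons.

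Members and lists were chosen with earlier results of these data known. Named genes are, per family, the 4 lowest and 2 highest by infarct core against normal region (all in families of 6 or fewer), the 3 smallest p where none or over 10 passed, members called against the majority, a fixed set (of which TOMM22, TOMM40, TOMM70, TIMM44 and TIMM50, among others, were not analysed here as members), and the 3 lowest and 2 highest of each list with MTG1. Alternatives were other scalings, filters, blocks and probe summaries, single scan series, the authors' values and leaving out each pig.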

Additional observations from a re-analysis of the deposited data

Results flagged for a closer look

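In groups of 4 or 6 arrays, 75 sets of values (25 members in 3 secretome groups) were checked for 1 array far from the others, and chance alone flags about 1 in 20. There were 4 such values. In the normal region of the secretome arm pig 16 was high for MRPL43, at -0.52 with the others between -2.18 and -2.04. The member probe of MRPL43 had the smallest fall that passed in the large subunit. Pig 16 was also high there for MRPL46, at 3.67 with the others between 2.94 and 2.97. Pig 16 is the only secretome pig of scan series 1 with a normal region array. In the border zone of the secretome arm pig 15 was low for MRPL46, at 2.52 with the others between 2.99 and 3.25, and for TIMM23, the presequence channel, at 3.51 with the others between 3.83 and 4.01. Without pig 16 or pig 15 all 3 genes still fell in the infarct core against the normal region.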

How the results depend on the processing

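Against the normal region, 23 members passed with pig as a fixed replicate block as in the reported fit, 22 with no replicate block, and 23 or 24 when each pig was left out. Against the border zone the reported count was 24, with 24 under the fixed block, 20 with no block, and 22 to 24 when each pig was left out. With the authors' values, which hold 17 members, 15 passed against the normal region. In scan series 2 alone 12 passed against the border zone. No alternative gave a member past the threshold in the border zone against the normal region, for secretome against medium or for the difference between arms; the fixed block cannot estimate the treatment effect. Normexp background correction moved the median over all probes from -0.05 to -0.21 for infarct core against normal region and from -0.02 to 0.12 against the border zone. In each of this pair of comparisons 21 members passed. Over all kept probes 3996 fell and 2859 rose in the first, and 3588 fell and 2561 rose in the second. The median over all probes moved from -0.02 to -0.24 for border zone against normal region. For secretome against medium in the infarct core it moved from -0.04 to -0.43. Without the dim-probe filter TOMM20L passed as higher in the infarct core, on probes near background. No called difference of a named member reversed under any alternative run. Leaving out pig 10 or pig 18 leaves 1 normal region array with medium, scan series 1 holds 1 normal region array per arm, and scan series 2 holds 1 medium pig; the lone sample is assumed to vary like the other groups.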

Other observations

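Probes without a gene symbol were not members by the rule, but 8 carry a description as a mitoribosomal or import protein; they were singled out after the files were seen and read from the same limma fit. TOMM40, the channel of the outer membrane translocase, fell in the infarct core against the normal region by 1.19 (SE 0.15, adjusted p = 2.72e-06) and against the border zone by 0.81 (SE 0.13, adjusted p = 5.61e-05). A pair of probes described as L43 fell by 1.06 (SE 0.22, adjusted p = 0.000450) and by 0.93 (SE 0.13, adjusted p = 8.00e-06), both by more than the MRPL43 probe of the member list (0.70). A probe described as partial Tim9, a small chaperone of the intermembrane space, did not pass (-0.19, SE 0.12, adjusted p = 0.208). Probes described as L1 and TOM7 were well above background on 10 and 9 arrays and did not pass against the normal region (-0.11, adjusted p = 0.644, and -0.18, adjusted p = 0.522), while the TOM7 probe passed against the border zone (-0.57, SE 0.19, adjusted p = 0.0210). Those described as Tim8 A and S23 did not pass the filter on dim probes.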
